A study of Mus musculus with 2 samples.

Results

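The genes of Wnt signaling were followed through the Isl1 binding map of the early embryonic heart field. The 46 genes were chosen by name, with earlier results of these data known. They comprised 15 canonical Wnt ligands, 4 ligands of the Wnt5a/Wnt11 type (Wnt4, Wnt5a, Wnt5b and Wnt11) and 10 Frizzled receptors. Also included were 4 co-receptors, 8 secreted inhibitors and 5 intracellular effectors. A peak was counted for a gene where the deposited list named that gene as the one with the closest transcription start site (TSS). By this rule 171 of the 48295 Isl1 peaks belonged to a Wnt gene, and the genes were set beside all 21031 protein-coding genes with a RefSeq mRNA. Isl1, a LIM-homeodomain transcription factor of second heart field progenitors, was precipitated from the cardiogenic mesoderm and heart region of C57BL/6 embryos at E8.25-E9 with a monoclonal anti-Isl1 antibody. Chromatin came from a pool of about 60 to 80 embryos and gave 1 ChIP sample, described here, and 1 input sample, whose signal was not analysed here. No genotype other than the strain and no treatment was labelled, and the dissected tissue is a mix of cell types, so the cells in which a site was bound cannot be told from the list.

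Wnt ligands are secreted, lipid-modified glycoproteins that bind Frizzled receptors at the cell surface. In the canonical branch a Frizzled and the co-receptor Lrp5 or Lrp6 together halt the destruction of beta-catenin, which then enters the nucleus and acts with Tcf/Lef factors on target genes. Ligands of the Wnt5a/Wnt11 type mostly act without beta-catenin, in part through Ror receptors, and steer cell polarity and movement. In heart development Wnt signals are known to act in stages, first in mesoderm formation, later by holding back cardiac specification, and again in the renewal of second heart field progenitors, and the secreted Dkk, Sfrp and Wif1 proteins limit them.

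The sequences of 6 of the Wnt gene peaks are shown first, because they hold the kinds of sequence found under the remainder. Each is the centre of the peak closest to its gene, read 5′ to 3′ on the forward strand of mm9. Capitals mark the longest run made of purines or of pyrimidines alone, where that run reached 25 bases. In peaks without such a run they mark TAAT, the core letters of homeodomain sites, or CTTTGAT, the core letters of Tcf/Lef sites, on either strand. The first 2 are promoter peaks, directly upstream of the listed TSS of Wnt9a and Tcf7, and the sequence for Wnt9a ends where the annotated transcript begins.
Wnt9a, chr11:59120299-59120429: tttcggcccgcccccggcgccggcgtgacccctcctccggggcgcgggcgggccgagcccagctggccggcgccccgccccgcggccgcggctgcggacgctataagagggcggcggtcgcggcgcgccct
Tcf7, chr11:52096688-52096887: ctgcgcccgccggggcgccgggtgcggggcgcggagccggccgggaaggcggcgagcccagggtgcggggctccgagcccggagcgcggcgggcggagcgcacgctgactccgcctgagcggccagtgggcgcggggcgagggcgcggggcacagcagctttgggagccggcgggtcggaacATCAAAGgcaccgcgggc
The next 3 lie between 1.15 and 7.61 kb from the TSS and are built around a run of pyrimidines.
Wif1, chr10:120469810-120470009: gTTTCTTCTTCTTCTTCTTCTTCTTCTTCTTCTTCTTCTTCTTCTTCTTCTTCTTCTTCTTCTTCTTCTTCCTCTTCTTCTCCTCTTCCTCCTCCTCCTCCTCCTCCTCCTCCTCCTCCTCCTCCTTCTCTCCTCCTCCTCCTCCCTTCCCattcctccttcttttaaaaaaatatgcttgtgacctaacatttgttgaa
Wnt11, chr7:105981374-105981573: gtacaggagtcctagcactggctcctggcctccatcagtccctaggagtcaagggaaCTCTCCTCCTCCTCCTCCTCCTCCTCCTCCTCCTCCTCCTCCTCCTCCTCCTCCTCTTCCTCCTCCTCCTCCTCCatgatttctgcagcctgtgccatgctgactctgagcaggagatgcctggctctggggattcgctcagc
Wnt5a, chr14:29332100-29332299: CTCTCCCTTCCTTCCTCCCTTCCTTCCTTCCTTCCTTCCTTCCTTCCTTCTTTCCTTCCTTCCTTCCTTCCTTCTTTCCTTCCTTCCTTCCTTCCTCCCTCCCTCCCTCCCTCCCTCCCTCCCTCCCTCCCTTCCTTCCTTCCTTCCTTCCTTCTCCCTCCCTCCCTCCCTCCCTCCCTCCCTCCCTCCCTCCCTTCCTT
The last, in an intron of Wnt7b, holds neither a run nor a CpG-rich stretch but opens with a CA repeat.
Wnt7b, chr15:85380724-85380923: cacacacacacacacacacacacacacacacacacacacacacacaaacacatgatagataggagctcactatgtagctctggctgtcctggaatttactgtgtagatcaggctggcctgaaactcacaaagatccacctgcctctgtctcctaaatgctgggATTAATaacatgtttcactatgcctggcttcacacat

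At least 1 Isl1 peak was listed for 38 of the 46 Wnt genes (82.6%, 95% Wilson interval 69.3 to 90.9%), where 51.9% of all protein-coding genes had one. At least 2 peaks were listed for 26 Wnt genes (56.5%; all genes 30.5%), at least 5 for 11 Wnt genes (23.9%; all genes 10.8%) and at least 10 for 6 of them (13.0%; all genes 3.79%). A peak within 10 kb of the TSS was found at 19 Wnt genes (41.3%; all genes 25.7%), and a peak within 1 kb at 4 (8.7%; all genes 5.15%). The shares of all genes given here are not matched for the spacing between genes. The next paragraph takes up that spacing, for at least 1 peak only. No peak height, read count or replicate was given, so these shares are counts from 1 list, the depth behind each peak is unknown, and no test was made.

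Over all genes the share with a peak rose with the spacing of protein-coding TSSs, which was wide around many of the Wnt genes. The stretch of a gene is the sequence for which its own TSS is the closest protein-coding TSS in GENCODE. Its median was 122 kb for the Wnt genes and 46.7 kb for all genes, but 42.5 kb for the canonical ligands. Of the 21031 genes 18118 could be given a stretch, and the shares of all genes by stretch and by peaks per Mb refer to these. Among genes with a stretch of 30 to 100 kb, 11 of 19 Wnt genes (57.9%) had a peak, close to the 55.0% of all genes of that size. Among genes with 100 to 300 kb all 18 Wnt genes had one (all genes 85.9%), and with 300 kb or more all 6 (all genes 95.1%). The remaining 3, Wnt1, Wnt6 and Wnt10b, had stretches under 30 kb, and each had a peak, where 23.1% of all genes of that size did. All 8 Wnt genes without a peak therefore fell in the range of 30 to 100 kb.

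**Figure D1:**
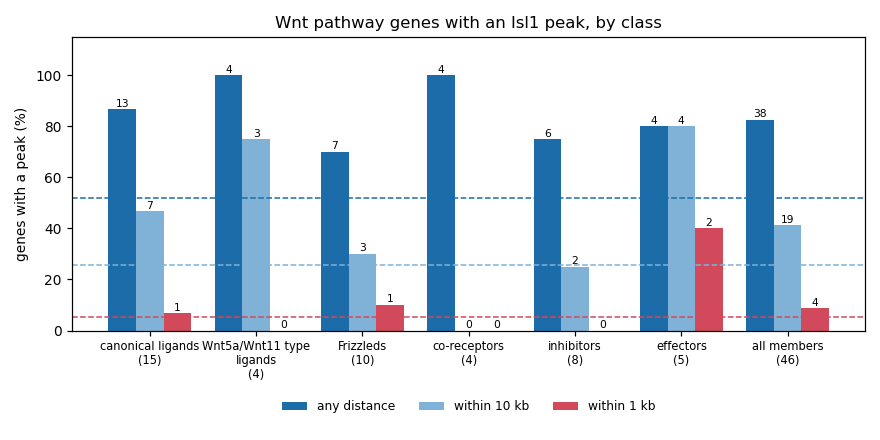
Share of genes with an Isl1 peak (%) by class of Wnt gene, with the number of genes in each class in brackets; bars give genes with a peak at any distance (dark blue), within 10 kb (light blue) and within 1 kb (red) of the TSS, the number above each bar is the count of genes, and the dashed lines give the shares of all protein-coding genes in the same colours. At any distance the classes lay between 70.0 and 100%, above the 51.9% of all genes, which are not matched for length of stretch. Of all genes with a stretch of 100 to 300 kb, 85.9% had a peak. Within 10 kb the co-receptors stood at 0 and the effectors at 4 of 5.

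When peaks were counted per Mb of stretch, assigned to the closest GENCODE TSS, the Wnt genes held 25.1 peaks per Mb and the genome 18.2. Of the 46 Wnt genes 26 (56.5%) were above the genome value, as were 36.8% of all genes. Within the sizes this was 3 of 3 Wnt genes (all genes 21.3%) for stretches under 30 kb, 8 of 19 Wnt genes (42.1%; all genes 41.8%) for 30 to 100 kb, 11 of 18 (61.1%; all genes 48.1%) for 100 to 300 kb and 4 of 6 (66.7%; all genes 52.9%) above that. By class the co-receptors had 31.2 peaks per Mb, the Frizzleds 28.0, the effectors 26.8, the inhibitors 25.7, the canonical ligands 22.7 and the Wnt5a/Wnt11 type ligands 17.4. The co-receptor value rested on Ror1, which held 15 of the 21 peaks of its class.

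**Figure D2:**
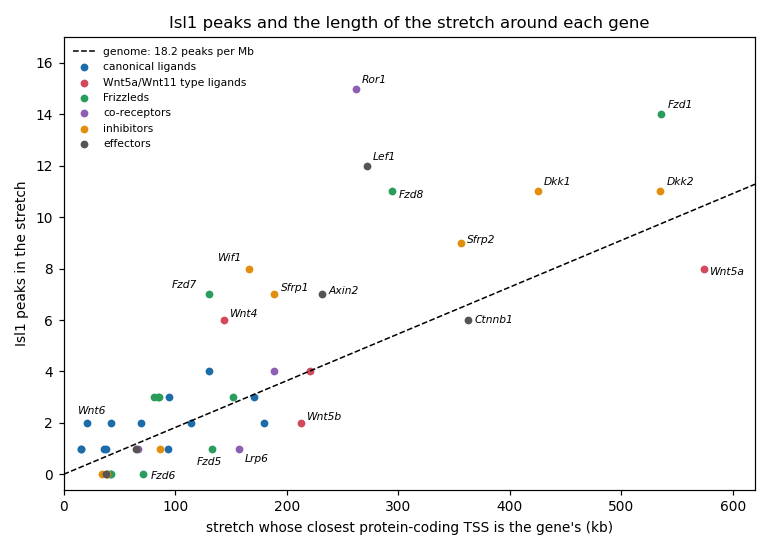
Isl1 peaks in the stretch of each Wnt gene (y axis, peaks assigned to the closest GENCODE TSS) against the length of that stretch (x axis, kb); each point is a gene, coloured by class, and the dashed line is the genome value of 18.2 peaks per Mb. Ror1 with 15 peaks in 262 kb and Lef1 with 12 in 272 kb stand far above the line, and Wnt5a with 8 in 574 kb lies below it.

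Canonical ligands had few peaks each. A peak was listed for 13 of 15 (86.7%, interval 62.1 to 96.3%; all genes 51.9%). There were 25 peaks in all and no more than 3 at any gene, over stretches with a median of 42.5 kb. The closest of them lay on the promoter of Wnt9a, a ligand known from joint development, at chr11:59120140-59120656, with its midpoint 0.034 kb upstream of the TSS. A second Wnt9a peak lay 19.1 kb downstream, in an intron of the gene. Among the other canonical ligands, the closest peak lay 4.8 kb downstream of the TSS for Wnt8b, in an intron, at chr19:44572495-44573032. It lay 4.83 kb upstream for Wnt10b, at chr15:98613204-98613614, and 5.02 kb upstream for Wnt9b, at chr11:103615943-103616359. For Wnt1, the ligand of the midbrain and dorsal neural tube, the only peak lay 7.68 kb downstream of the TSS, beyond the end of the gene, at chr15:98627780-98628164. Wnt6 had a peak in an intron 8.14 kb downstream of its TSS, at chr1:74826289-74826925, and another 9.13 kb upstream. Wnt3, which is required for gastrulation, had a peak 9.54 kb upstream, at chr11:103625596-103626313, a peak in its own intron at 35.9 kb and a peak in an intron of Nsf at 68.8 kb.

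For the remaining canonical ligands with a peak, the listed peaks lay farther out. Wnt8a, at 10.1 kb, and Wnt7a, at 12.0 kb, were just outside 10 kb. Wnt7b (3 peaks) had its closest at 27.7 kb, Wnt2 (2 peaks) at 30.3 kb and Wnt2b (1 peak) at 38.8 kb. All 3 Wnt16 peaks lay 103 to 120 kb upstream of the gene, in introns of A430107O13Rik. Wnt3a and Wnt10a, the ligands with no listed peak, both have a Wnt gene as a neighbour that did have one.

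Of the 19 Wnt ligand genes 8 stand in pairs, and in each pair at least 1 peak lay between both gene starts. Wnt3a and Wnt9a are transcribed away from each other from starts 16.2 kb apart, with the Wnt9a promoter peak between them, 16.1 kb from the Wnt3a start. Wnt1 and Wnt10b, likewise divergent, start 11.7 kb apart, and the peak between them was listed for Wnt10b. Wnt3 and Wnt9b, divergent with starts 24.3 kb apart, had 2 peaks in between, and each gene was given the peak nearer to it. Wnt6 and Wnt10a lie on the same strand with starts 19.6 kb apart, and the Wnt6 intron peak between them lay 11.5 kb from the start of Wnt10a. For these pairs the assignment to the closest TSS decides which gene is counted.

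**Figure D3:**
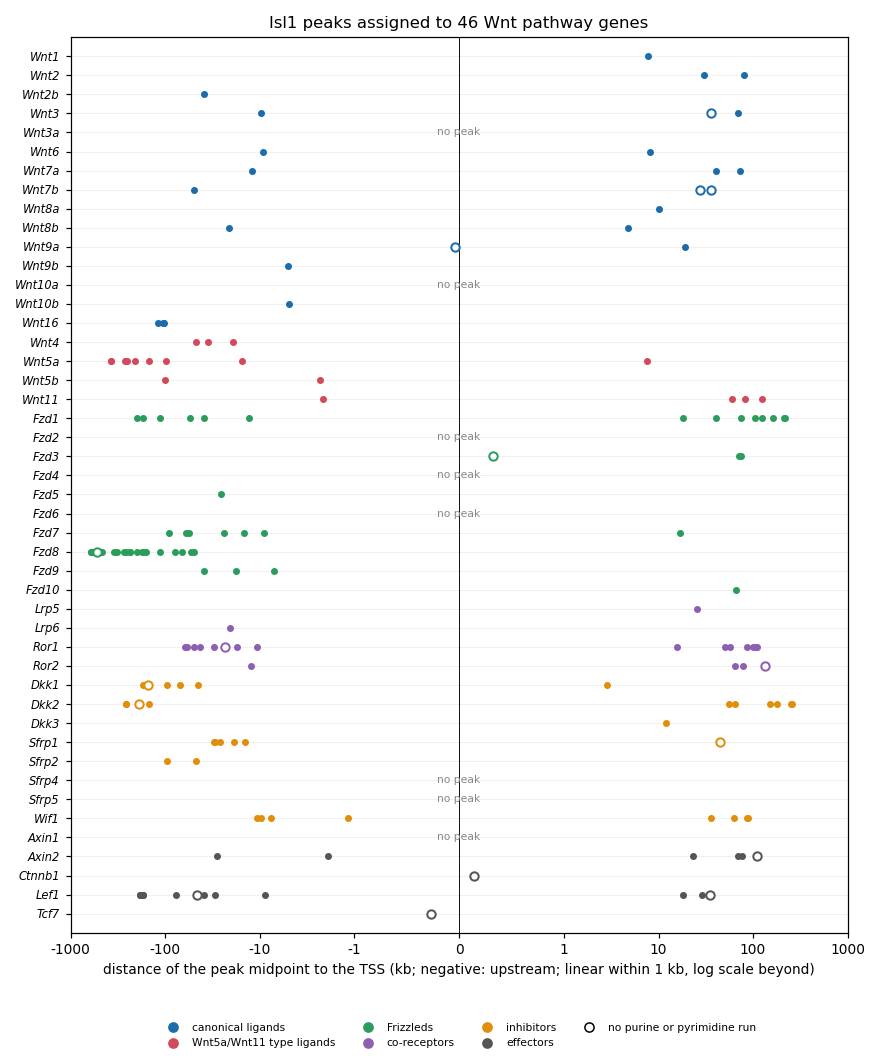
Signed distance of every Isl1 peak assigned to the 46 Wnt genes to the TSS (x axis, kb, negative upstream, linear within 1 kb and logarithmic beyond), one line per gene and colours by class; open circles are peaks without a purine or pyrimidine run. The 4 peaks within 1 kb, at Wnt9a, Fzd3, Ctnnb1 and Tcf7, are all open circles, the 21 Fzd8 peaks all lie upstream, and 8 genes have no peak.

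All 4 ligands of the Wnt5a/Wnt11 type had a peak (all genes 51.9%), and 3 of them had one within 10 kb (all genes 25.7%). Wnt11, a ligand of outflow tract and myocardial morphogenesis, had a peak 2.15 kb upstream of its TSS at chr7:105981319-105981627. Its 3 other peaks, 60.2 to 124 kb downstream, lay in introns of Uvrag. Wnt5b had a peak 2.29 kb upstream of its listed TSS at chr6:119419270-119419765, which is intronic where GENCODE places the gene, and a second at 99.0 kb in an intron of Erc1. Wnt5a, a ligand of the second heart field that acts in outflow tract lengthening, had the most peaks of any ligand with 10. The closest lay in its own intron, 7.61 kb downstream of the TSS, at chr14:29331985-29332413, and the remaining 9 were upstream, between 15.3 and 375 kb away. Of those 9, 8 lay within introns of Erc2, and 2 of the 8 were closer to a GENCODE TSS of Erc2. Wnt4 had 3 peaks, 19.2 to 46.5 kb upstream. In total these 4 genes held 19 peaks at a median distance of 97.0 kb, and all 19 carried a purine or pyrimidine run.

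Frizzleds, the membrane receptors of Wnt ligands, ranged from 0 to 21 peaks per gene. A peak was listed for 7 of 10 (70.0%, interval 39.7 to 89.2%; all genes 51.9%), 50 peaks in all. Fzd8 had 21, the most of any Wnt gene, and all lay upstream, from 49.4 to 606 kb. With the closest GENCODE TSS 10 of these went to a predicted gene, Gm5819, which left 11. Fzd1 had 14 peaks, 6 upstream and 8 downstream, between 13.0 and 220 kb, of which 4 lay in introns of Cdk14. Fzd7, a receptor known from early mesoderm, had 7, and the closest of them was 8.95 kb upstream at chr1:59529943-59530133. That peak was 190 bp wide, the narrowest of all Wnt gene peaks. Fzd9 had 3, with the closest 7.07 kb upstream at chr5:135733749-135734224. Fzd3, a receptor of planar cell polarity and axon guidance, had a promoter peak with its midpoint 0.321 kb downstream of the TSS at chr14:65880728-65881231, and 2 more at 70.5 and 73.9 kb. Fzd5 and Fzd10 had 1 peak each, at 25.6 and 66.0 kb.

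No peak was listed for Fzd2, Fzd4 or Fzd6. The nearest peak of any gene lay 13.3 kb from the Fzd2 start, 20.7 kb from the Fzd4 start and 66.8 kb from the Fzd6 start. Near Fzd4 the list gave 3 peaks to AI314278, a noncoding neighbour, and by the closest protein-coding GENCODE TSS these 3 peaks belonged to Fzd4. The same holds for other Wnt genes with noncoding or unnamed neighbours: Sfrp2 gained 7 peaks by that assignment, Ctnnb1 and Dkk1 gained 5 each, Wnt4 gained 3, Fzd10 gained 2 and Wnt7a gained 1.

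All 4 co-receptors had peaks (all genes 51.9%), but none within 10 kb (all genes 25.7%). Ror1, a receptor tyrosine kinase for Wnt5a, had 15 peaks, 8 upstream from 10.6 kb outward and 7 in its own introns, spread over 61.4 kb before and 109 kb after the TSS. Its relative Ror2 had 4, the closest 12.3 kb upstream. Lrp5 and Lrp6, the co-receptors of the canonical branch, had 1 peak each, at 25.5 kb in an intron of Lrp5 and at 20.5 kb upstream of Lrp6. Lrp6 had the lowest density of the 39 Wnt genes with a peak in their stretch, 6.38 per Mb.

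Inhibitors had a peak at 6 of 8 genes (75%, interval 40.9 to 92.9%; all genes 51.9%), 35 peaks in all. Their median stretch was 178 kb, and 85.9% of all genes with 100 to 300 kb had a peak. Wif1, which binds Wnt proteins outside the cell, had 8. A series of 4 led up to its TSS at 1.15, 7.5, 9.6 and 10.6 kb upstream, the closest of them at chr10:120469715-120470103. No other Wnt gene had more than 2 peaks within 10 kb. Dkk1, which blocks Lrp5 and Lrp6, had 6 peaks: the closest lay 2.85 kb downstream of the TSS in the annotated untranslated part of Dkk1 at chr19:30620918-30621364, and 5 lay in introns of Prkg1, 44.7 to 169 kb upstream. Dkk2 had 11, more than any other inhibitor, and all were far out, from 55.1 to 259 kb. One Dkk2 peak of 1931 bp was the widest of the Wnt gene peaks. Of the Sfrp genes, whose products bind Wnt ligands through a Frizzled-like domain, Sfrp1 had 7 peaks within 44.6 kb and Sfrp2 had 2, at 47.0 and 95.2 kb. Dkk3 had 1, at 12.0 kb. Sfrp4 and Sfrp5 had none, and the nearest peaks of any gene lay 50.8 and 50.6 kb from their starts.

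Effectors had a peak at 4 of 5 genes (80.0%, interval 37.6 to 96.4%; all genes 51.9%). At all 4 of these a peak lay within 10 kb (all genes 25.7%). The median stretch of the effectors was 232 kb, and 85.9% of all genes with 100 to 300 kb had a peak. Ctnnb1, which encodes beta-catenin, had its only listed peak on the promoter, with the midpoint 0.143 kb downstream of the TSS at chr9:120842676-120843002. Tcf7, a Tcf/Lef factor, likewise had 1 peak, 0.271 kb upstream at chr11:52096587-52096988. Lef1, its relative and a target of the pathway, had 12, and the closest was 8.85 kb upstream at chr3:130804139-130804599. Of these 12, 9 lay upstream, up to 184 kb away, and 3 in introns of Lef1, 18.1 to 34.8 kb downstream. Axin2, a feedback inhibitor that beta-catenin switches on, had 7, of which 2 lay upstream and 5 downstream, out to 110 kb. Axin1, its constitutive counterpart in the destruction complex, had none, and the nearest peak of any gene was 29.6 kb away.

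The class shares ran from 70.0 to 100% at small numbers of genes, and their intervals overlapped throughout. Median stretches were 42.5 kb for the canonical ligands and 108 to 232 kb for the other classes. Of all genes, 55.0% with 30 to 100 kb and 85.9% with 100 to 300 kb had a peak. Differences between the classes were not tested. The intervals count each gene as independent, which the paired ligand genes are not. Distances of the 171 peaks were those of the list as a whole: their median was 60.2 kb (95% interval 45.7 to 73.9 kb), against 58.8 kb for all peaks. Median width was 475 bp, against 466 bp, and 12.9% lay within 10 kb, against 15.9%. By class the median distance was 27.7 kb for the canonical ligands, 39.0 kb for the effectors, 50.8 kb for the co-receptors, 63.2 kb for the inhibitors, 97.0 kb for the Wnt5a/Wnt11 type ligands and 97.7 kb for the Frizzleds. More Wnt gene peaks lay upstream than downstream, 107 of 171 (62.6%), where 47.5% of all peaks lay upstream. Fzd8 gave 21 of these, and Wnt5a and Lef1 gave 9 each. Without Fzd8 and Wnt5a, the share over the peaks of the 36 other genes was 55.0%, 77 of 140. Leaving out genes with mostly upstream peaks lowers the share by construction, and the list as a whole was not trimmed in that way.

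Against the gene models 113 peaks (66.1%) were intergenic, 57 (33.3%) intronic and 1 was in an untranslated exon part. By host, 33 peaks (19.3%) lay inside the gene they were listed for and 25 (14.6%) inside another gene, as at Wnt5a in Erc2, Dkk1 in Prkg1, Fzd1 in Cdk14 and Wnt11 in Uvrag. Neighbouring peaks of the same Wnt gene were a median of 22.7 kb apart (all genes 23.3 kb). Midpoints under 2 kb apart were found for 7 of 133 neighbouring pairs (5.26%; all genes 5.25%), 2 each at Lef1 and Sfrp1 and 1 each at Fzd8, Ror1 and Wif1, so few of the counts per gene came from closely spaced peaks.

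The sequence under the Wnt gene peaks was largely that of the whole list. Purines alone or pyrimidines alone, over 25 bases or more, ran within 100 bp of the midpoint at 155 of 171 peaks (90.6%, interval 85.3 to 94.2%; all peaks 94.1%). In windows 1 kb to either side the share was 6.14% (all peaks 3.93%). The longest run in the 200 bp window had a median of 92 bp in both sets, and 48.4% of the Wnt gene runs were purines on the forward strand. GAGAGAGA or its complement was present in 91 peaks (53.2%; all peaks 55.0%). TAAT was present in 53 (31.0%; all peaks 35.3%), counted on both strands. CTAATG, a longer homeodomain word, was present in 1 (0.585%; all peaks 2.64%), a Wnt5a peak 265 kb upstream. CTTTGAT was also present in 1 (0.585%; all peaks 1.27%), the Tcf7 promoter peak, where it reads ATCAAAG on the strand shown above. Such a match is a description of the letters and does not say which protein was bound.

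The 16 peaks without a run belonged to 14 genes (30.4% of the Wnt genes; all genes 9.66%). These shares of genes are not matched for stretch or for the number of peaks per gene. By peak, 16 of 171 were without a run, and 2858 of 48295 in the whole list. The 16 peaks were at Wnt3, Wnt7b (2 peaks), Wnt9a, Fzd3, Fzd8, Ror1, Ror2, Dkk1, Dkk2, Sfrp1, Axin2, Ctnnb1, Lef1 (2 peaks) and Tcf7. Of the 16, 7 held at least 10 CpG dinucleotides in 200 bp (43.8%), where 32.2% of all peaks without a run did, and none of the 155 peaks with a run did. These 7 were the promoter peaks of Wnt9a, Fzd3, Ctnnb1 and Tcf7, the peak in the Wnt3 intron, and 1 peak each listed for Ror2 and Fzd8. The Ror2 and Fzd8 peaks were far from the TSS of those genes, but the Fzd8 peak lay within 1 kb of a GENCODE TSS of Gm5819. All 4 promoter peaks were without a run, where 50.7% of all peaks within 1 kb of a TSS held one. The G+C content of these 4 windows was 79.0 to 86.5%, with 33 to 40 CpGs each, against medians of 64.0% and 9 over all peaks within 1 kb. The Wnt3 intron window, 35.9 kb from the TSS, had 83.0% G+C and 40 CpGs. A CA repeat of at least 6 units, on either strand, was present at 4 of the 16, 1 each at Wnt7b, Fzd8, Ror2 and Sfrp1 (25%; all peaks without a run 25.9%).

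**Figure D4:**
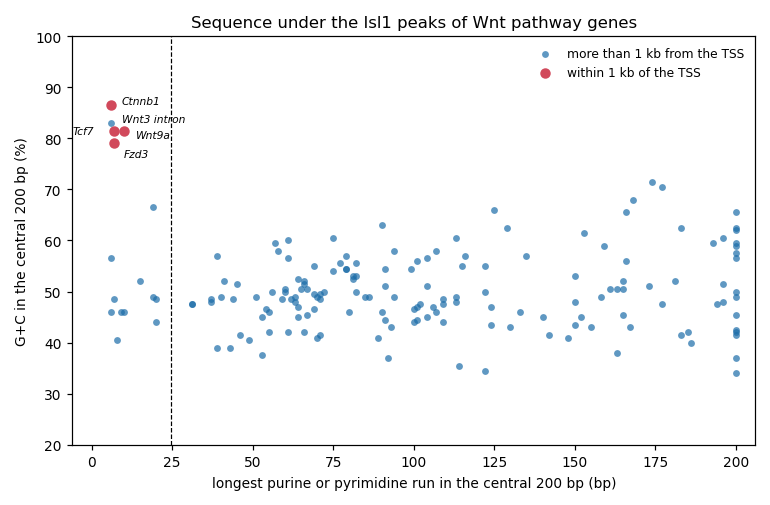
Longest purine or pyrimidine run (x axis, bp, at most 200 because of the window) against G+C content (y axis, %) in the central 200 bp of the 171 Wnt gene peaks; red points lie within 1 kb of the TSS and the dashed line marks the minimum of 25 bp. The 4 promoter peaks and the Wnt3 intron peak form a group at 79.0 to 86.5% G+C with runs of 10 bp or less, apart from all other peaks.

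Of 63 other genes of the pathway 42 (66.7%; all genes 51.9%) had a peak, 170 peaks in all. A peak within 10 kb of the TSS was found at 18 of them (28.6%; all genes 25.7%), and a peak within 1 kb at 6 (9.52%; all genes 5.15%). R-spondins raise Wnt sensitivity by clearing the ligases Rnf43 and Znrf3 from the membrane. The group of R-spondins, their Lgr receptors and these 2 ligases had a peak at 7 of 9 genes, and so had the planar cell polarity genes. Nuclear cofactors had a peak at 8 of 11, the genes for ligand processing and secretion at 2 of 3, known target genes at 4 of 5 and other receptors at 3 of 4. Further secreted or membrane inhibitors (5 of 10) and the cytoplasmic relay (6 of 12) stood at 50.0%, near the 51.9% of all genes. None of these group shares is matched for length of stretch, so the order of the groups cannot be told apart from gene spacing. In the last 2 groups the genes without a peak had stretches from 5.43 kb (Dkkl1) to 111 kb (Apcdd1). Under 30 kb, 23.1% of all genes had a peak.

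Promoter peaks among them were those of Vangl1, 0.061 kb downstream of the TSS, Pygo1, 0.104 kb upstream, Ryk, 0.125 kb downstream, Dvl1, 0.206 kb downstream, Znrf3, 0.229 kb downstream, and Rspo3, 0.88 kb upstream. The first 5 had no run, as at the 4 Wnt gene promoters, and the Rspo3 peak held one. The genes with the most peaks were 3 of the 4 Groucho-type corepressors listed, which bind Tcf/Lef factors in the absence of beta-catenin. Tle1 had 15 peaks in a stretch of 577 kb, Tle4 had 14 in 1070 kb and Tle3 had 11 in 273 kb, with the closest 22.0 to 30.4 kb from the TSS. The fourth, Tle2, named after its values were seen, had 1 peak, 7.17 kb upstream, in a stretch of 26.5 kb. Wls, which carries Wnt ligands to the cell surface, had 8, the closest 7.77 kb upstream. Ryk, a Wnt receptor, and Prickle2, a polarity protein, had 7 each.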

How the data were processed

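By the methods of the study, alignment by the authors used Bowtie2 and mm9, Picard 1.136 took out PCR duplicates, and MACS calls were kept at a preset p-value outside blacklisted regions, each with its nearest TSS. The deposited list gives position, signed distance and gene, with no score, height or p-value, and whether it joins replicates is not stated. Here the genes were matched by symbol. The members, the lists and the stretch sizes were chosen with earlier results of these data known. All protein-coding RefSeq genes with an NM accession served as background, and 79.7% of the peaks were matched to one, by symbol, accession or an older symbol. Features, closest GENCODE TSS and sequence came from NCBIM37 (mm9) with GENCODE vM1, read with pysam 0.24.0 in Python 3.11.15. Motifs were searched on both strands of the central 200 bp. The scripts were tested on simulated data. Intervals are 95% Wilson intervals for shares and an order-statistic interval for the median, and cover counting error only. Named were genes with a peak within 10 kb, those with the most peaks and those with none. For other pathway genes, those with a peak within 1 kb and those with the most peaks were named. Sequences downstream of a promoter TSS and on chromosome 18 are not shown. The position and sequence of 1 further peak are not reported here. Alternatives were GENCODE assignment, a distance limit, peaks without a run, a minimum of 2 peaks for a gene, the wider peaks only, the class of Wnt4, and the run's length and window.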

Additional observations from a re-analysis of the deposited data

How the results depend on the processing

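Of 49 values recomputed with another choice, 27 were scored as within the tolerance set for them and 22 as beyond it. The tolerance was a factor of 1.5 for counts, and the 95% interval for the median distance and the run share. With the wider peaks, the inhibitors went from 6 to 4, on the limit, and were scored within. The median distance of 73.9 kb equalled the upper limit as rounded, and was scored beyond. Counting only peaks within 10 kb of the TSS left 19 genes and 22 peaks, with 7 canonical ligands, 3 Frizzleds, 0 co-receptors and 2 inhibitors, and 81.8% of the peaks with a run. With peaks wider than the median of the list 89 peaks and 2 effectors remained, at a median distance of 73.9 kb. With at least 2 peaks per gene 8 canonical ligands, 2 co-receptors and 2 effectors were counted. Among peaks without a run there were 14 genes and 16 peaks, with 3 canonical ligands, 0 Wnt5a/Wnt11 type ligands, 2 Frizzleds, 2 co-receptors and 3 inhibitors, at a median distance of 35.9 kb. A window of 50 bp to either side gave 80.7% with a run. Each of these settings counts fewer peaks or less sequence by construction. The 9 values recomputed with the closest GENCODE TSS and the 2 with Wnt4 among the canonical ligands stayed within the tolerance. No paired analysis was possible because there was 1 ChIP peak list and no test. Without read counts or peak heights, weak and strong peaks could not be told apart, and a gene without a listed peak may be bound below the threshold of the list.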
